A study of Mus musculus with 16 samples.

Results

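The genes described are 10 genes of polyamine metabolism among 25719 genes measured in whole mouse liver. They are the ornithine decarboxylase gene Odc1, the agmatinase gene Agmat, the adenosylmethionine decarboxylase gene Amd1, the synthase genes Srm and Sms, the regulators Azin1 and Oaz1, and the catabolic genes Sat1, Smox and Paox. All 10 were found by gene name in the deposited table. The set was chosen from the differences of Paox between groups, which were already known, and the other 9 genes were added for their place in the same pathway. For that reason the values of Paox are given as a description with no test, and counts of genes past the threshold cover the other 9. Earlier results of these data were also known when the 9 were added, so their counts are not independent support.

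Livers came from 16 male mice, which were put on the diets at 8 to 12 weeks of age. WT mice of strain C57BL6J and Klrk1-/- mice, labelled strain NKG2D and lacking the gene of the activating receptor NKG2D, received a normal chow diet (NCD) or the steatosis-steatohepatitis diet (SSD), which is high in fat, fructose and cholesterol. Feeding lasted 3 weeks. There were 4 WT mice on NCD, 5 WT mice on SSD, 4 Klrk1-/- mice on NCD and 3 Klrk1-/- mice on SSD. Each library held 19892025 to 28936707 reads on genes. Klrk1 itself lay between 20.1 and 71.1 normalized counts in the WT mice and between 0.966 and 8.71 in the Klrk1-/- mice, so the libraries matched their labels. All 5 hepatocyte markers, among them Alb, Apoa1 and Ttr, were detected. The labels do not say that the mice of a group came from separate cages or litters, so p-values measure the spread between these mice only. By the study's methods the mouse lines were bred as colonies, and the WT mice are not called littermates of the Klrk1-/- mice. A difference between genotypes therefore cannot be told apart from a difference between colonies or cages. In whole liver, fewer cells of a type and less RNA per cell cannot be told apart.

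Polyamines are small, positively charged molecules that bind nucleic acids and are needed for growth and translation. Ornithine is decarboxylated to putrescine by Odc1, and Srm and Sms then add aminopropyl groups, supplied through Amd1, to make spermidine and spermine. Antizyme, the product of Oaz1, sends Odc1 protein to degradation, and Azin1 binds antizyme and so protects Odc1. In the reverse direction Sat1 acetylates spermidine and spermine, Paox oxidises the acetylated forms in peroxisomes, and Smox oxidises spermine directly. The liver is also a main site of the urea cycle, which shares ornithine and arginine with this pathway.

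For 8 of the 10 genes RefSeq promoters (table build GRCm38.p6) were at hand, and Srm and Azin1 were not matched. The 250 bases before the annotated start are shown for Paox, whose level differed most between groups, and for Sat1 and Amd1, which both differed between genotypes on NCD. Each was matched exactly once in GRCm39, and is written from 5′ to 3′ on the strand of the gene with CG dinucleotides in capitals. The Paox stretch, the first of 2 entries, is chr7:139705320-139705569 on the plus strand, the Sat1 stretch chrX:153999446-153999695 on the minus strand and the Amd1 stretch chr10:40178185-40178434 on the minus strand. The Paox stretch lies inside the gene model of the deposited table, which starts further upstream at 139695712. Some of its bases may therefore lie in transcribed sequence.
Paox: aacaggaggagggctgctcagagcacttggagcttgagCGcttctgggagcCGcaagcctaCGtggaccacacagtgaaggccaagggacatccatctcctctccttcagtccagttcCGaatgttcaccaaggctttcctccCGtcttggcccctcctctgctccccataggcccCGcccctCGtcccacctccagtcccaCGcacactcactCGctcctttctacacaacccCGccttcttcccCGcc
Sat1: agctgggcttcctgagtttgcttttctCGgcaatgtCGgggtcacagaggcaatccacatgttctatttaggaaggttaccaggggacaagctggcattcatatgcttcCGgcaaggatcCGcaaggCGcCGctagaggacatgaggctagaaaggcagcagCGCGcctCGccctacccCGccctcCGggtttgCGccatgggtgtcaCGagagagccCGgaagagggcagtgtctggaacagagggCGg
Amd1: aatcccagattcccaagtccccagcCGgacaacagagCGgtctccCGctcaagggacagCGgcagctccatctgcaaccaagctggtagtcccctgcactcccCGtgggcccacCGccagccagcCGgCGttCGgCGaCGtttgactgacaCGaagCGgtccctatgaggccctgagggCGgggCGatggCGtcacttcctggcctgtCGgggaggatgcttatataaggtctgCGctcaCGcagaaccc
These stretches hold 11, 15 and 19 CG dinucleotides, against a median of 6 over the 32851 promoters of the table. Among the other members, Odc1 had 35 and Agmat 2 in the upstream of its 2 entries. The GC box GGGCGG was searched on both strands. It occurred in all 3 stretches shown and in 32.7% of all promoters of this length. The E-box CACGTG, a palindrome, was found in none of the 3 and in 6.02% of all promoters, and TATAAA, searched on both strands, in none of the 3 and in 12.4%. A match of letters is a description only, and a missing match says nothing about a factor.

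Of the 10 genes, Paox differed most between the groups as a ratio of means. In WT mice on NCD it stood at 773, 834, 815 and 771 normalized counts, where a normalized count is the number of reads divided by the factor of its library. On SSD the 5 WT mice stood at 192, 247, 253, 232 and 229. In Klrk1-/- mice Paox was at 89.6, 89.6, 85.8 and 71.3 on NCD and at 63.7, 69.1 and 81.4 on SSD. Every WT mouse on NCD was above every WT mouse on SSD, and these were all above every Klrk1-/- mouse, whereas the diets overlapped in Klrk1-/- mice. The group means were 798 ± 31 (SD, n = 4), 230.5 ± 23.8 (SD, n = 5), 84.1 ± 8.68 (SD, n = 4) and 71.4 ± 9.07 (SD, n = 3). The mean of WT mice on NCD was therefore 9.49 times that of Klrk1-/- mice on NCD, and the mean of WT mice on SSD 3.23 times that of Klrk1-/- mice on SSD. On the log2(normalized count + 1) scale, the difference between diets was -1.79 (SE 0.10) in WT mice and -0.23 (SE 0.16) in Klrk1-/- mice. The library with the fewest held 58 reads of Paox.

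**Figure D1:**
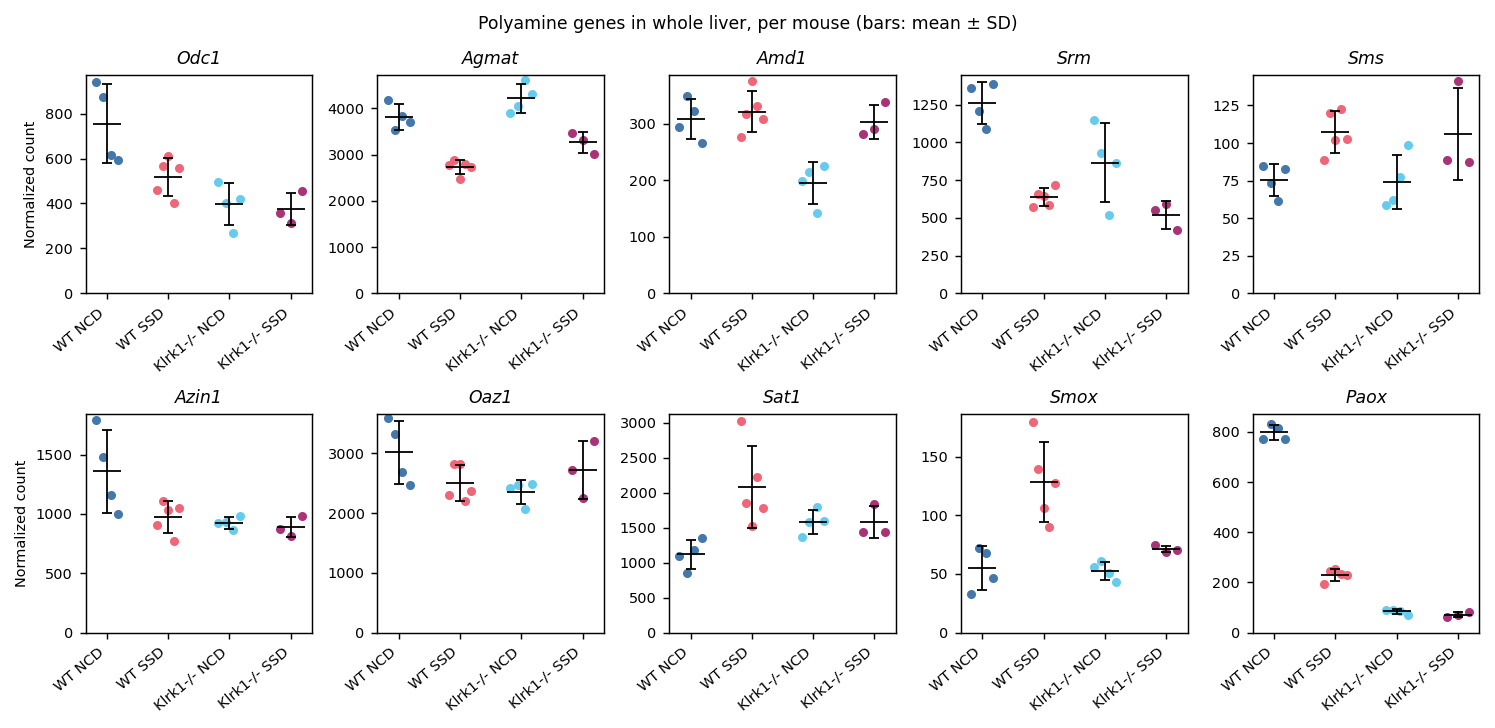
Normalized counts of the 10 genes in each mouse (points, linear axis from 0) with the mean ± SD of each group (black). Paox is at 771 to 834 in WT mice on NCD and below 254 in the others, while Smox and Sat1 are highest in WT mice on SSD.

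Paox lies on chromosome 7 of GRCm39 (139695712 to 139717137), on another chromosome than the deleted Klrk1. Its gene model overlaps Echs1, a gene of mitochondrial fatty acid oxidation on the opposite strand, at its far upstream end. The strand setting of the read counting is not given in the sources used here, so reads in the overlap cannot be assigned to one of them. Echs1 was at 4761 ± 926 normalized counts in WT mice and 3311 ± 374 in Klrk1-/- mice on NCD (SD, n = 4 each), a log2 fold change of -0.51 (SE 0.13, limma, Benjamini-Hochberg adjusted p = 0.0276). Within 200 kb of Paox, 7 genes had a mean of at least 10 normalized counts, Echs1 among them. Mtg1, 0.34 kb downstream, rose from 329 ± 30.8 to 452 ± 10.4 normalized counts in Klrk1-/- mice on NCD (log2 fold change 0.46, SE 0.10, limma adjusted p = 0.0118). Tubgcp2, a gene of the microtubule nucleation complex, rose by 0.61 on the log2 scale (SE 0.10, limma adjusted p = 0.00313). Zfp511 fell by 0.56 on the log2 scale (SE 0.15, limma adjusted p = 0.029). Fuom, 13.4 kb away, differed by -0.06 (SE 0.11, limma adjusted p = 0.723). Of the 7 neighbours, 2 rose and 2 fell on NCD, where 13.1% of all genes tested passed the threshold. Their log2 fold changes there lay between -0.96 and 0.63, where Paox was at -3.24. Between diets in WT mice, where Paox was at -1.79, Sprn rose by 1.58 (SE 0.23, limma adjusted p = 0.000373). Adam8 was there at 1.18 (limma adjusted p = 0.0334), Fuom at -0.67 and Echs1 at -0.40, all past the threshold, as were 34.9% of all genes. On SSD, Adam8 was at 49.3 ± 32.5 normalized counts in WT mice and 13.4 ± 1.80 in Klrk1-/- mice, where Paox was at 230.5 and 71.4.

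**Figure D2:**
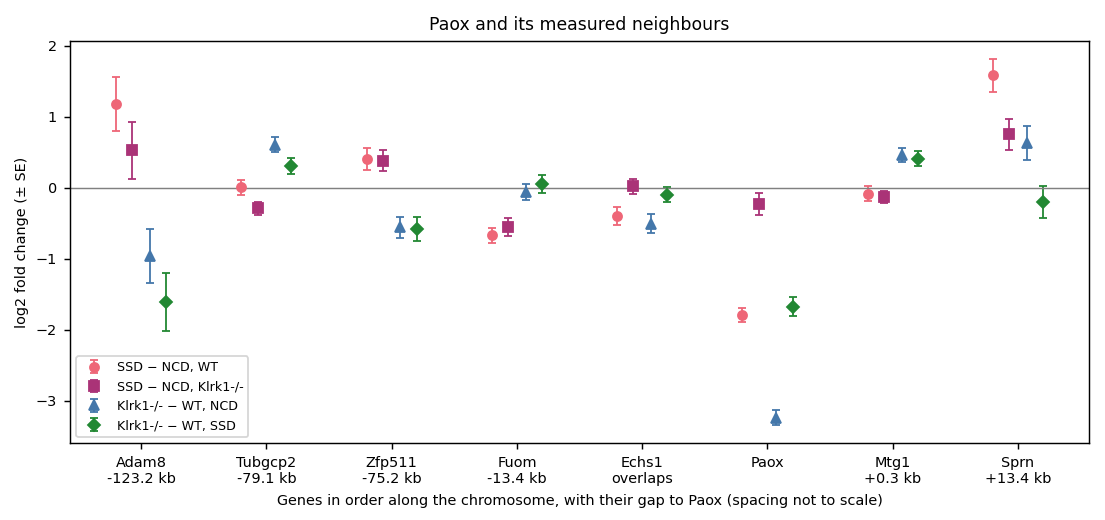
log2 fold changes (± SE) of Paox and its 7 measured neighbours within 200 kb, in order along the chromosome, for 4 comparisons. Paox stands at -3.24 between genotypes on NCD, against values between -0.96 and 0.63 for its neighbours. Between diets in WT mice Paox is at -1.79, Sprn at 1.58 and Adam8 at 1.18.

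The genes whose group means were most like those of Paox were sought among 13067 genes by the root mean square difference of the 4 centred group means of log2(normalized count + 1). The 5 nearest were Derl3 (0.38), Tchh (0.40), Saa1 (0.45), Noct (0.46) and Saa2 (0.49). Derl3 belongs to endoplasmic reticulum associated degradation, Noct encodes the rhythmic protein nocturnin, and Saa1 and Saa2 encode acute phase serum amyloid A proteins. Derl3 averaged 639.6 normalized counts in WT mice on NCD, 248 in WT mice on SSD, 132 in Klrk1-/- mice on NCD and 82.2 in Klrk1-/- mice on SSD. Tchh was low, with 28.2 in WT mice on NCD and 2.45 in Klrk1-/- mice on SSD. All of these were picked by likeness over 4 groups, so the order of their groups is given by the choice.

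**Figure D3:**
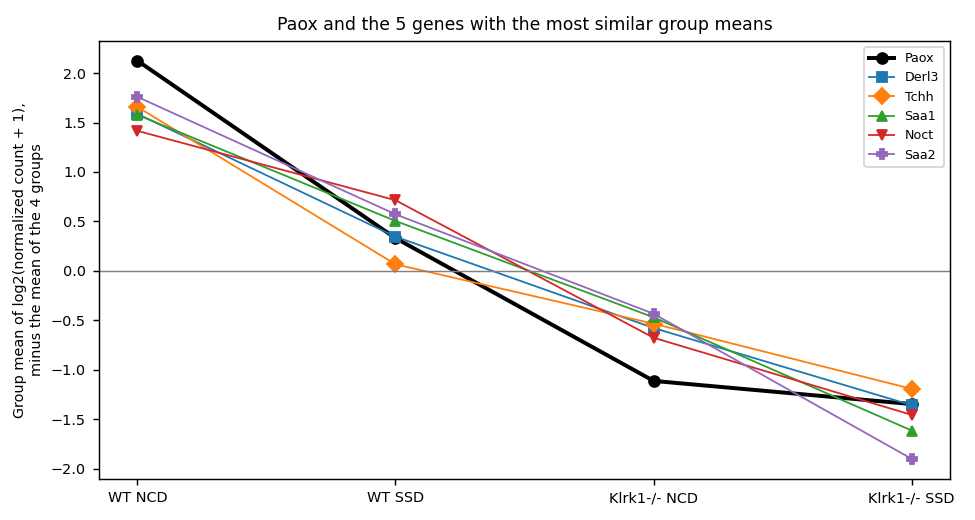
Group means of log2(normalized count + 1), centred on the mean of the 4 groups, for Paox (thick line) and the 5 genes with the smallest root mean square difference from it. All 6 are highest in WT mice on NCD and lowest in Klrk1-/- mice on SSD, which the choice by likeness fixes.

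To ask how the diet bears on the pathway in WT mice, SSD-fed and NCD-fed WT mice were compared. Of the 9 genes other than Paox, 3 rose (Smox, Sat1 and Sms) and 4 fell (Srm, Odc1, Agmat and Azin1) with an adjusted p under 0.05 in limma. Among all 13091 genes tested, 34.9% passed this threshold, 17.3% higher and 17.6% lower on SSD. The median log2 fold change of the 9 genes was -0.26, beside -0.00 over all genes. With every library scaled to the same total the split was 4 higher (Amd1, Sat1, Smox and Sms) and 1 lower (Srm). There 53.7% of all genes passed, and the middle gene of all those tested was at 0.34.

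Of the catabolic genes, Smox stood at 32.6, 72.5, 67.8 and 46.3 normalized counts in WT mice on NCD and at 179, 139, 107, 89.7 and 127 on SSD. The groups did not overlap, and the log2 fold change was 1.24 (SE 0.26, limma adjusted p = 0.00331). Sat1, which starts the breakdown route by acetylation, was at 1090, 859, 1177 and 1345 on NCD and at 3020, 1848, 1530, 2231 and 1786 on SSD. It rose 1.86-fold in the mean, with a log2 fold change of 0.87 (SE 0.18, limma adjusted p = 0.00363). Mouse 1 of the SSD group was the highest of its group in both genes. The same mouse had the highest summed level of the 10 macrophage markers (22608 normalized counts, against 8138 to 14090 in the other 4 and 6012 to 6856 on NCD) and of the 12 cell cycle genes (3706, against 1381 to 2945 and 1006 to 1111). It stood apart in the 6 stellate cell markers too, at 20292 against 2080 to 6472 in the other 4 and 2195 to 2829 on NCD, and was the highest of its group in the T and NK cell and the neutrophil sums. In WT mice 6 of the 10 macrophage markers and 11 of the 12 cell cycle genes rose on SSD, as did 3 of the 6 stellate and 3 of the 4 endothelial markers, and 3 of the 5 hepatocyte markers fell. Their part in the changes of Smox and Sat1 was not tested. Without mouse 1 the log2 fold changes were 1.11 for Smox (limma adjusted p = 0.00417) and 0.73 for Sat1 (limma adjusted p = 0.00193).

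Of the synthetic genes, Srm fell furthest. It was at 1362, 1208, 1091 and 1385 normalized counts on NCD and at 573, 656, 642, 585 and 719 on SSD, with no overlap. Its mean on NCD was 1.99 times that on SSD, and the log2 fold change was -0.99 (SE 0.10, limma adjusted p = 2.7e-05). Agmat, which makes putrescine from agmatine, fell from 3822 ± 277 (SD, n = 4) to 2733 ± 156 (SD, n = 5), again with no overlap (log2 fold change -0.48, SE 0.08, limma adjusted p = 0.000937). Sms went the other way, from 75.5 ± 10.6 to 107 ± 13.9 normalized counts (log2 fold change 0.50, SE 0.15, limma adjusted p = 0.0234), and its call was lost under quantile normalization (0.27, limma adjusted p = 0.278) and without WT NCD mouse 3 (0.41, limma adjusted p = 0.0741), WT SSD mouse 2 (0.46, limma adjusted p = 0.0566) or WT SSD mouse 4 (0.45, limma adjusted p = 0.0587). Odc1, the first enzyme of the route, was at 941, 873, 618 and 591 on NCD and at 460, 566, 610, 402 and 557 on SSD. Mouse 3 of the SSD group lay above the lowest NCD mouse, so the groups overlapped, and the log2 fold change was -0.53 (SE 0.16, limma adjusted p = 0.0267). Without WT NCD mouse 1 it was -0.41 (limma adjusted p = 0.0874), without WT NCD mouse 2 -0.45 (limma adjusted p = 0.0774) and without WT SSD mouse 4 -0.44 (limma adjusted p = 0.061). Amd1 differed by 0.06 (95% interval -0.19 to 0.31, limma adjusted p = 0.712).

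Of the regulators, Azin1 fell by 0.45 on the log2 scale (SE 0.16, limma adjusted p = 0.0459), from 1359 ± 350.7 to 974.6 ± 133.5 normalized counts. It lost the call when any mouse but WT NCD mouse 5 or WT SSD mouse 2 was left out, with limma adjusted p between 0.0501 and 0.139, and also with no minimum mean (limma adjusted p = 0.0536) or quantile normalization (limma adjusted p = 0.0624). Oaz1 differed by -0.26 (95% interval -0.53 to 0.01, limma adjusted p = 0.124). In WT mice on NCD the mice kept the same order in Odc1, Azin1 and Oaz1, with mouse 1 highest and mouse 5 lowest, and Echs1 and Eif5a showed this order too. How many of all genes have this order was not counted. Odc1, Azin1 and Oaz1 also shared an order in Klrk1-/- mice on SSD. They did not all share an order in WT mice on SSD or in Klrk1-/- mice on NCD.

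**Figure D4:**
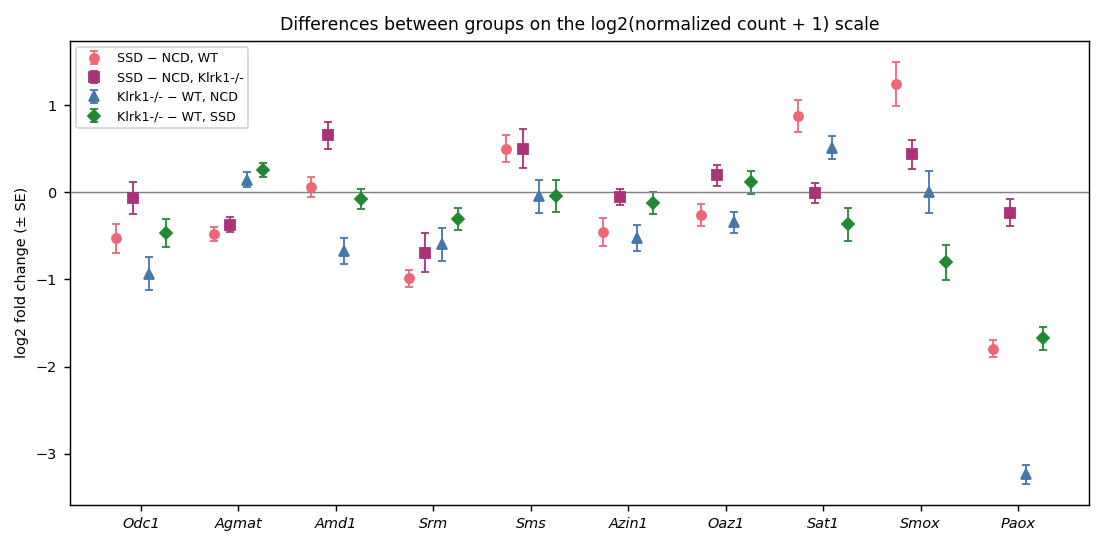
log2 fold changes (± SE) of the 10 genes in 4 comparisons on the log2(normalized count + 1) scale, ordered by role from synthesis to catabolism. Paox, shown without a test, reaches -3.24 between genotypes on NCD. Srm, Odc1 and Azin1, like Paox, are below 0 in all 4 comparisons. Srm, Odc1 and Azin1 passed the threshold in only some of these comparisons.

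The response of Klrk1-/- mice to SSD was compared next. Of the 9 genes, Amd1 rose and Srm and Agmat fell, while 29.4% of the 12904 genes tested passed the threshold, 1723 higher and 2067 lower. With every library scaled to the same total, Amd1, Oaz1, Smox and Sms were higher past the threshold and none was lower. With that scaling 43.6% of all genes passed, and the middle gene of all those tested was at 0.25. Amd1 was at 199, 214, 142 and 226 normalized counts on NCD and at 282, 291 and 339 on SSD, with no overlap (log2 fold change 0.65, SE 0.16, limma adjusted p = 0.009). Agmat went from 4223 ± 318 (SD, n = 4) to 3267 ± 232 (SD, n = 3), a log2 fold change of -0.37 (SE 0.09, limma adjusted p = 0.00798). Srm was at 1144, 929, 516 and 866 on NCD and at 549, 593 and 416 on SSD. Mouse 3 on NCD lay within the SSD group, and the log2 fold change of -0.69 (SE 0.22, limma adjusted p = 0.0341) became -0.92 without that mouse (limma adjusted p = 0.000769). Leaving out Klrk1-/- NCD mouse 1, 2 or 4 or Klrk1-/- SSD mouse 1 or 3 ended the call of Srm, with limma adjusted p between 0.0729 and 0.151, and DESeq2 did not call it (adjusted p = 0.0563). Of the markers in these mice, 4 of the 5 of hepatocytes fell, and 5 of the 10 of macrophages rose and 1 fell, while 2 of the 6 of stellate cells, 1 of the 4 of endothelial cells and 1 of the 4 of cholangiocytes rose. Mitochondrial reads made up 11.9% to 16.8% on NCD and 7.66% to 9.06% on SSD, with no overlap. The summed macrophage markers were at 5273 to 6212 normalized counts on NCD and at 5930 to 7447 on SSD. The part of these markers and of mitochondrial reads in the changes of Amd1, Srm and Agmat was not tested. Sat1 was at 1584 ± 175 and 1578 ± 230 normalized counts, a log2 fold change of -0.01 (95% interval -0.26 to 0.24, limma adjusted p = 0.962). Smox had groups that did not overlap, at 43.1 to 61 on NCD and 69.1 to 74.4 on SSD, but its log2 fold change of 0.44 (SE 0.17) did not pass (limma adjusted p = 0.0747).

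Whether the response to the diet differed between genotypes was tested by the interaction in a model of all 16 mice. In limma 0 of the 9 genes passed, beside 0.880% of the 13068 genes tested. An unadjusted p under 0.05 was found for 4 of the 9 and for 17.3% of all genes. edgeR called 0 of the 9 and 0.689% of all genes, and DESeq2 called 1 of the 9 and 3.52% of all genes. The largest interaction among the 9 genes was that of Sat1, at -0.88 (SE 0.25, limma adjusted p = 0.0948), the gene that DESeq2 called (adjusted p = 0.0255). Amd1 had an interaction of 0.59 (SE 0.20, limma adjusted p = 0.147).

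On NCD, Klrk1-/- mice were compared with WT mice. Sat1 rose and Odc1, Amd1 and Azin1 fell, 4 of the 9 genes, where 13.1% of the 12845 genes tested passed the threshold, 6.41% higher and 6.66% lower. Odc1 was at 494, 401, 270 and 421 normalized counts in Klrk1-/- mice, all below the lowest WT mouse at 591. Its mean in WT mice was 1.91 times that in Klrk1-/- mice, and the log2 fold change was -0.93 (SE 0.19, limma adjusted p = 0.00915). Amd1 was at 295, 349, 323 and 267 in WT mice and no higher than 226 in Klrk1-/- mice (log2 fold change -0.67, SE 0.15, limma adjusted p = 0.0143). Azin1 went from 1359 ± 350.7 to 924 ± 49.5 (log2 fold change -0.52, SE 0.15, limma adjusted p = 0.0381). Sat1 was higher in every Klrk1-/- mouse, at 1363, 1585, 1791 and 1597, than in the highest WT mouse at 1345 (log2 fold change 0.51, SE 0.13, limma adjusted p = 0.0248). Srm, at -0.60 (SE 0.19, limma adjusted p = 0.0557), and Oaz1, at -0.34 (SE 0.12, limma adjusted p = 0.0754), did not pass.

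The Klrk1-/- mice on NCD had more mitochondrial reads, 11.9% to 16.8% of reads on genes against 7.77% to 11.6% in WT mice on NCD. Mouse 3 had the highest share, and it was the lowest of its group in Odc1, Srm, Amd1, Azin1 and Oaz1 and the highest in Sat1 and Agmat. Without it, Odc1 was at -0.76 (limma adjusted p = 0.0202) and Amd1 at -0.53 (limma adjusted p = 0.0283), whereas Sat1 was at 0.45 (limma adjusted p = 0.0748) and Azin1 at -0.49 (limma adjusted p = 0.0995). Sat1 also lost the call without WT mouse 1 (0.51, limma adjusted p = 0.054), WT mouse 2 (0.39, limma adjusted p = 0.0559) or Klrk1-/- mouse 2 (0.51, limma adjusted p = 0.0606), and in a model of all 4 groups (limma adjusted p = 0.0518). Azin1 lost it without any mouse but WT mouse 3 or WT mouse 5, with limma adjusted p between 0.0537 and 0.102. Srm passed without Klrk1-/- mouse 1 (-0.75, limma adjusted p = 0.0248), and Oaz1 without WT mouse 5 (limma adjusted p = 0.0247). DESeq2 called both, Srm with an adjusted p of 0.0281 and Oaz1 with 0.0375, and Srm also passed in the model of all 4 groups (limma adjusted p = 0.0329). Of the 7 factors listed for control of these genes, Myc, an activator of Odc1 transcription, fell by 1.80 on the log2 scale (SE 0.51, limma adjusted p = 0.0375), and its antagonist Mnt rose by 0.38 (SE 0.10, limma adjusted p = 0.032), both named after their values were seen. The rest did not pass: Mycn was at 0.52, Max at -0.04, Mxd1 at 0.30, Mxi1 at -0.13 and Nfe2l2 at 0.14. Myc ranged from 107 to 1019 normalized counts in WT mice and from 77 to 138 in Klrk1-/- mice. Of 15 clock genes, 2 rose and 3 fell, and Per2 fell by 1.19 on the log2 scale (SE 0.17, limma adjusted p = 0.00117). The part of mitochondrial reads, Myc or the clock genes in these differences was not tested. Between diets in WT mice 3 of the 15 clock genes rose and 3 fell, beside 34.9% of all genes. Per2 was at -1.46 there (SE 0.20, limma adjusted p = 0.000243). In Klrk1-/- mice 1 fell between diets (29.4% of all genes passed), and between genotypes on SSD 2 fell (2.90% passed). Their part in the changes of members in those comparisons was not tested either.

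On SSD, no gene of the 9 passed between Klrk1-/- and WT mice in limma, where 2.90% of the 13116 genes tested did. An unadjusted p under 0.05 was found for 4 of the 9 and for 22.9% of all genes. edgeR called 0 of the 9 and 2.37% of all genes, and DESeq2 called 2 of the 9, Smox and Agmat, and 9.31% of all genes. Smox was at 74.4, 69.1 and 70.3 normalized counts in Klrk1-/- mice, all below the lowest WT mouse at 89.7, with a log2 fold change of -0.80 (95% interval -1.26 to -0.35, limma adjusted p = 0.0657). It passed without WT SSD mouse 1 (-0.67, limma adjusted p = 0.0406) and without WT SSD mouse 4 (-0.92, limma adjusted p = 0.0425). The 3 Klrk1-/- mice had summed macrophage markers of 5930 to 7447 normalized counts and summed cell cycle genes of 965 to 1156, below the WT mice on SSD. Of these lists 2 and 6 genes fell in limma, and their part in the difference of Smox was not tested. Odc1 differed by -0.47 (95% interval -0.82 to -0.11, limma adjusted p = 0.127), Agmat by 0.26 (95% interval 0.08 to 0.44, limma adjusted p = 0.108) and Sat1 by -0.37 (95% interval -0.80 to 0.06, limma adjusted p = 0.286).

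Levels of different genes were compared per kb of gene length. In WT mice on NCD Oaz1 (2951 ± 514 normalized counts per kb) and Agmat (2716 ± 197) led, and their ranges overlapped. Srm (1489 ± 163), Sat1 (1079 ± 195), Azin1 (694 ± 179), Odc1 (678 ± 159) and Paox (543 ± 21.1) followed, each overlapping the next. Amd1 (149 ± 17.1) stood apart from both neighbours, and Smox (40.7 ± 13.9) and Sms (40.7 ± 5.73) were lowest and overlapped. In WT mice on SSD Sat1 was second, at 2010 ± 560.5, and its range overlapped those of Oaz1 and Agmat. Paox moved from rank 7 on NCD in WT mice to rank 8 in Klrk1-/- mice on NCD (57.2 ± 5.91), where its range overlapped that of Sms. In Klrk1-/- mice on SSD it was at rank 10 (48.6 ± 6.18), and its range overlapped those of Smox and Sms.

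**Figure D5:**
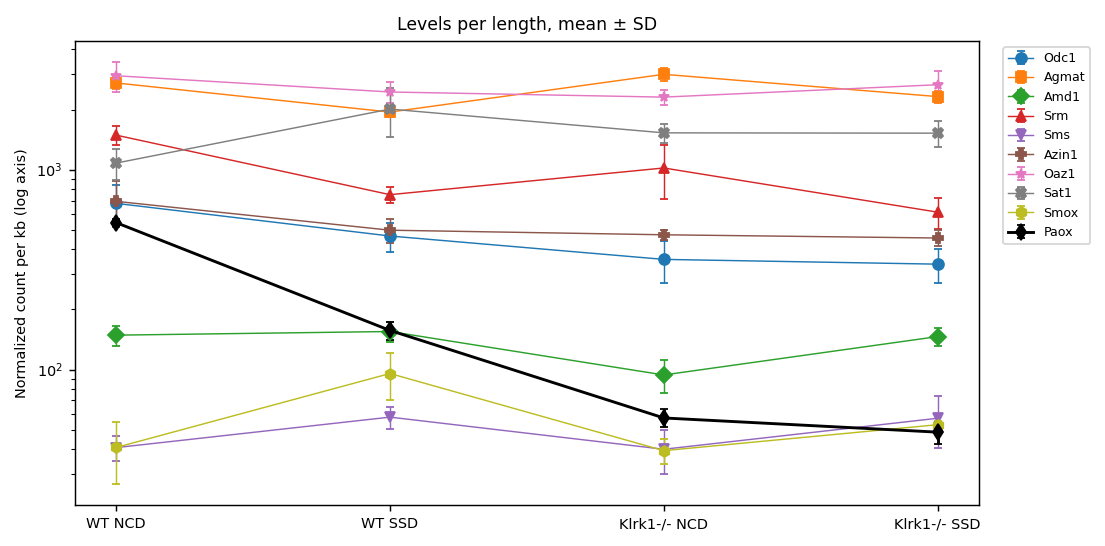
Normalized counts per kb of gene length (log axis, mean ± SD) of the 10 genes in the 4 groups. Paox is at 543 per kb in WT mice on NCD and at 48.6 in Klrk1-/- mice on SSD, whereas the lowest group mean of Oaz1 is 2307 and that of Agmat 1942.

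The wider pathway was read from a list of 42 genes of ornithine, arginine and methionine supply, transport and hypusination. In WT mice, 33 of them were tested, 5 rose and 12 fell on SSD, beside 34.9% of all genes past the threshold in either direction, and their middle log2 fold change was -0.18. With libraries scaled to the same total, where 53.7% of all genes passed, 13 of the list rose and 7 fell. Those furthest from 0 were Aldh18a1, a gene of proline and ornithine synthesis (34.8 ± 8.92 to 214 ± 135 normalized counts, log2 fold change 2.45, SE 0.33, limma adjusted p = 0.000194), and the arginine transporter gene Slc7a1 (1.56, SE 0.43, limma adjusted p = 0.0148), both higher. The urea cycle gene Ass1 was lower (38976 ± 2525 to 10460 ± 2385, log2 fold change -1.92, SE 0.15, limma adjusted p = 3.31e-06), as was Oat, whose enzyme converts ornithine (-1.68, SE 0.14, limma adjusted p = 6.06e-06). In Klrk1-/- mice, 4 rose and 8 fell among 34 tested, beside 29.4% of all genes (12 and 8 with libraries scaled to the same total, beside 43.6%). The same 4 genes led there, with log2 fold changes of 1.75 for Aldh18a1, 1.79 for Slc7a1, -1.56 for Ass1 and -1.40 for Oat. Slc7a1 lost the call there without Klrk1-/- SSD mouse 3 (1.55, limma adjusted p = 0.0582). On NCD, 3 of 32 genes fell in Klrk1-/- mice and 0 rose, beside 13.1% of all genes. Among those that fell were Mat1a, which makes S-adenosylmethionine (-0.37, SE 0.11, limma adjusted p = 0.0456), and Slc25a15, the mitochondrial ornithine carrier (-0.32, SE 0.09, limma adjusted p = 0.0397). Both were above the threshold in at least 6 of the 8 fits that left out 1 mouse, with limma adjusted p up to 0.121 for Mat1a and 0.113 for Slc25a15, and under quantile normalization, with 0.193 and 0.0682. On SSD, 1 rose and 1 fell among 34 tested, beside 2.90% of all genes. The gene that fell was Gatm, the first enzyme of creatine synthesis, at -0.72 (SE 0.14, limma adjusted p = 0.0305). Leaving out WT mouse 3 or any of the 3 Klrk1-/- mice ended the call of Gatm, with limma adjusted p up to 0.145. For the interaction 0 of 34 passed in limma (0.880% of all genes), 7 had an unadjusted p under 0.05 (17.3% of all genes), edgeR called 0 (0.689%) and DESeq2 called 4 (3.52%).

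The relatives of members were measured as well. Sat2 differed by -0.32 in WT mice on SSD against NCD (95% interval -0.63 to -0.01, limma adjusted p = 0.0958) and by 0.43 between Klrk1-/- and WT mice on SSD (95% interval 0.17 to 0.70, limma adjusted p = 0.076). Oaz2, a further antizyme gene, was at 390 to 422 normalized counts in the means of the 4 groups, with log2 fold changes between -0.10 and 0.11 in the 4 comparisons. Azin2 was low and rose on SSD in Klrk1-/- mice, from 19.8 ± 3.91 to 37.6 ± 6.63 normalized counts (log2 fold change 0.90, SE 0.25, limma adjusted p = 0.0196), but not without SSD mouse 2 (0.78, limma adjusted p = 0.0777) or 3 (0.89, limma adjusted p = 0.0659), nor in the model of all 4 groups (limma adjusted p = 0.0897). Amd2, a near-identical copy of Amd1, stayed below 10 normalized counts in every mouse, and how reads of Amd1 and Amd2 were shared by the counting is uncertain.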

How the data were processed

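Whole-liver RNA of 16 mice in 4 groups was sequenced as single 100 bp reads. Per the study's methods the authors ran FastQC, used STAR for alignment against GRCm39, counted reads per gene with FeatureCounts on GENCODE M26 and deposited normalized counts (signal). How the factors were computed and the strand setting are not given in the sources used here, and the labels name an mRNA kit where the study's methods name a total RNA kit. Each value was a whole multiple of 1 step per library (100% within 0.01), so reads were recovered. The authors also deposited gene lengths in bases, which served for values per kb.

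Log2(normalized count + 1) was tested with limma 3.58.1 (trend method, R 4.3.3) on the mice of each comparison, and on all 16 for the interaction, over genes with a mean of at least 10. P-values were Benjamini-Hochberg adjusted over all genes tested, with a threshold of 0.05 and no fold limit. Paox was put forward for its differences in these data. The other members and the lists were chosen by the function of the genes, with earlier results of these data known. Named were all members, from the wider list the 4 largest changes past the threshold in each comparison and the relatives Sat2, Azin2, Oaz2 and Amd2, and the 5 genes most like Paox. Neighbours within 200 kb were added. Some genes that this rule names are not reported here. Alternatives were pseudocounts of 0.5 and 10, no minimum or 50, equal totals, quantile normalization, edgeR 4.0.16 and DESeq2 1.42.0 on recovered reads, a fold above 1.5, the replicate block, all 4 groups in 1 model and each mouse left out. The functions were tested on simulated data. Within groups, 25 pairs of libraries differed by a chi-square of at least 14.2 per gene, so none was a second copy. Intervals are 95% intervals.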

Additional observations from a re-analysis of the deposited data

Results flagged for a closer look

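Oaz1 in Klrk1-/- mice on NCD had 1 mouse far from the others of its group. Mouse 3 was at 2061 normalized counts, against 2415, 2476 and 2481 in the other 3. The check covered 30 sets of values, the 10 genes in the 3 groups of 4 or 5 mice, and chance flags about 1 in 20 such sets.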

How the results depend on the processing

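Several counts and small differences depended on the processing, and the cause was not tested except where stated. Scaling every library to the same total moved the median over all genes, on the log2 scale, from -0.00 to 0.34 between diets in WT mice and from -0.00 to 0.25 in Klrk1-/- mice. By construction it moved genes upward on SSD, and gave 4 members higher and 1 lower in WT mice (3 and 4 otherwise) and 4 higher and 0 lower in Klrk1-/- mice (1 and 2 otherwise). Of all genes, 53.7% then passed in WT mice (34.9% otherwise) and 43.6% in Klrk1-/- mice (29.4% otherwise). Of the wider list 13 rose and 7 fell in WT mice (5 and 12 otherwise), and 20 genes passed in Klrk1-/- mice, 12 higher and 8 lower (12 otherwise). With that scaling these differences turned: Oaz1 0.0845, Sat2 0.0222 and Oaz2 0.246 between diets in WT mice, Oaz1 -0.00112 and Oaz2 -0.00155 between genotypes on SSD, Smox -0.0217 between genotypes on NCD, Paox 0.0198, Sat1 0.249, Odc1 0.194, Azin1 0.201 and Sat2 0.165 between diets in Klrk1-/- mice, and Sms -0.0878 for the interaction. Under quantile normalization Azin2 was at -0.0976 between diets in WT mice, Sms at 0.0994 between genotypes on SSD, Smox at -0.0381 between genotypes on NCD and Sat1 at 0.0414 between diets in Klrk1-/- mice. With this normalization 1 wider gene and 13.8% of all genes passed between genotypes on NCD. A pseudocount of 10 gave -0.00388 for Smox between genotypes on NCD and -0.00119 for Sms in the interaction. Smox between genotypes on NCD was at -0.0536 in edgeR and -0.0561 in DESeq2, and Sat1 between diets in Klrk1-/- mice at 0.00808 in edgeR and 0.00263 in DESeq2. DESeq2 called 2 members and 6 wider genes between genotypes on SSD (9.31% of all genes), and 1 member and 4 wider genes for the interaction (3.52%). A fold limit of 1.5 left 3 members and 9 wider genes between diets in WT mice, and 2 members and 0 wider genes between genotypes on NCD, where no minimum mean left 1 wider gene and 8.08% of all genes. The share of all genes past the fold limit was not counted. Mice with the same replicate number are different mice, and their deviations correlated between -0.13 and 0.25, so the numbers do not pair them. With the replicate block, 4 members passed between diets in WT mice (Sms, Odc1 and Azin1 did not), 1 member and 1 wider gene between genotypes on SSD (Sms at 0.00477), and 6 members, Srm and Oaz1 among them, and 5 wider genes between genotypes on NCD. Of all genes, 22.7% passed with the block between diets in WT mice, 5.41% between genotypes on SSD and 18.4% between genotypes on NCD. DESeq2 also called 6 members there and 17.8% of all genes. With 1 mouse left out at a time there were 4 (without WT SSD mouse 4) to 7 members between diets in WT mice, 0 to 1 members and 0 to 5 wider genes between genotypes on SSD, and 2 (without WT mouse 1, WT mouse 2, Klrk1-/- mouse 2 or Klrk1-/- mouse 3) to 5 members and 0 to 4 wider genes between genotypes on NCD. Of all genes, 27.5% to 34.2%, 0.342% to 5.49% and 5.59% to 17.1% passed in these fits of the respective comparisons. The same step turned differences near 0, over ranges of -0.00646 to 0.122 for Amd1 and -0.00585 to 0.585 for Azin2 between diets in WT mice, -0.0117 to 0.245 for Oaz1 and -0.271 to 0.0728 for Sms between genotypes on SSD, -0.0513 to 0.0147 for Oaz2, -0.217 to 0.159 for Smox and -0.191 to 0.0555 for Sms between genotypes on NCD, -0.127 to 0.00358 for Azin1, -0.00309 to 0.0655 for Oaz2, -0.236 to 0.0547 for Odc1 and -0.126 to 0.0529 for Sat1 between diets in Klrk1-/- mice, and -0.225 to 0.145 for Sms in the interaction. Depth limits the low genes Azin2, Amd2 and Slc7a1 most.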
